A study of Mus musculus with 41 samples.

Results

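A set of 10 genes of blood and lymph vessel growth were followed across Trp53-null mammary tumors: the growth factors Vegfa, Vegfb, Vegfc, Figf (now named Vegfd) and Pgf, the angiopoietins Angpt1 and Angpt2, the angiopoietin-like factor Angptl4, and the thrombospondins Thbs1 and Thbs2. They were chosen by gene name, 10 of the 30175 names on the array, and all 10 were among the 20861 genes tested. Each gene was read from its probe of highest mean signal. By limma, 1 of the 10 was called between spindle cell and epithelial tumors, Thbs2, which was 2.11-fold higher in spindle cell tumors. This call was lost with a slide block. The SAM statistic called 4 members and 5933 of all genes, against 4198 of all genes by limma. Limma called no member in any comparison of diet or of tumor onset, nor did SAM in those on which it was run.

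The VEGF family acts on receptors of endothelial cells: Vegfa, through Kdr, is the main signal for new blood vessels and is induced when oxygen is low, Pgf and Vegfb bind Flt1, and Vegfc and Figf act through Flt4 on lymphatic vessels. Angpt1 stabilizes vessels through the Tek receptor, which Angpt2 modulates, and the thrombospondins Thbs1 and Thbs2 are matrix proteins that inhibit angiogenesis. Angptl4 is a secreted inhibitor of lipoprotein lipase that is induced by fatty acids, through PPAR receptors, and by hypoxia.

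Fragments of mammary epithelium from 4 female BALB/c Trp53-null donor mice, 8 weeks of age, had been placed in the cleared fat pads of wild-type females at 3 weeks of age. The mice were fed a low fat diet (LFD, 10% of kcal from fat) or a high fat diet (HFD, 60%) throughout, or were switched at 10 weeks of age from HFD to LFD (HFD-LFD) or from LFD to HFD (LFD-HFD). Tumors that arose before 52 weeks were called early and the others late. The 29 epithelial tumors comprised 8 LFD, 8 HFD, 7 HFD-LFD and 6 LFD-HFD tumors, of which 14 were early and 15 late, and the 12 spindle cell tumors comprised 3 of each regimen, 3 early and 9 late. The label "p53 variable" was read as epithelial. No label says whether tumors came from separate mice, and 3 label numbers occur on 2 tumors each.

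Each array gave the ratio of tumor RNA to a reference RNA pooled from 11 mouse cell lines, and every value below is a log2 ratio of the processed Cy5 signal over the processed Cy3 signal. The labels place the tumor in Cy5, whereas the methods of the study place the reference there. The labels were followed. In these tumors of female mice, Ddx3y and Eif2s3y of the Y chromosome were far lower in Cy5 than in Cy3 on all 41 arrays, at -7.64 to -3.90 and -8.65 to -2.59. With the dyes the other way round, the sign of each ratio and of each difference in ratio below would turn, while correlations would keep theirs. Between 52.4% and 94.9% of probes were well above background in the tumor channel. The 12 spindle cell arrays, and no others, were scanned in 1 session, from which histology cannot be told apart. The early HFD tumors 42L4B and 60L were scanned in a further session, on a slide of their own. On the array of 60L, 22% of spots were flagged as outliers, and Vegfa, Vegfb, Angptl4, Thbs1 and Thbs2 have no value there. The scanner files of the HFD tumors 40R4A, 57R and 65R correlated best with one another's columns of the authors' matrix, which would change the onset of some of them but not their regimen.

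The histology labels were checked against marker genes. None of the 11 epithelial markers passed the test between spindle cell and epithelial tumors, although all 11 differences were negative. The mean of the list lay between -1.73 and 1.94 in spindle cell and between 0.03 and 4.25 in epithelial tumors. The value of 4.25 was that of 60L, the array with many outlier spots, and the next highest epithelial tumor was at 2.08. Of 10 fibroblast genes, 4 were higher in spindle cell tumors, with Col1a1 at 1.22 (adjusted p = 0.0129, limma), Col1a2 at 1.22 (adjusted p = 0.00808) and Col3a1 at 1.20 (adjusted p = 0.0167), all collagen chains. Col3a1 did not pass without 2 spindle cell tumors described below (0.79, adjusted p = 0.0977). The macrophage gene Cd163 was higher by 1.95 (adjusted p = 5.99e-07), the single call among 7 macrophage genes, and Mylpf was lower among 6 muscle genes, at -0.58 (adjusted p = 0.00958). Fewer cells of a type and less RNA per cell cannot be told apart in such bulk samples.

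The probes are 60 bases long. The first 30 bases are shown for the genes on which the results turn, with positions in the NCBI37/mm9 build.
Vegfa, chr17:46154387-46154446, minus strand: cagatcggtgacagtcactagcttgtcctg
Pgf, chr12:86508335-86510337, minus strand: tagaaactcacagactgaggaaccccaccc
Angpt1, chr15:42256335-42256394, minus strand: catgtgtgtagcaatttgatacgcatagct
Angptl4, chr17:33911880-33911939, minus strand: atggtgctgttgtaggtgctgtggatgcac
Thbs2, chr17:14804526-14805789, minus strand: ctgtttgtcttctcccaagagatggtctat
The probes of Pgf and Thbs2 span 2003 and 1264 bases of the genome, and therefore cross at least 1 intron. Signals of different probes are not comparable, so no level is set against that of another gene. In the tumor channel all 10 probes exceeded background clearly on all 41 arrays, except that of Angpt1 in 1 late HFD-LFD tumor.

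Thbs2, an inhibitor of angiogenesis, was the called member. In 28 epithelial tumors its log2 ratio ran from -2.69 through a median of -0.43 to 1.35 (mean -0.61 ± 1.0, SD), and in the 12 spindle cell tumors from -0.70 through 0.53 to 1.63 (mean 0.47 ± 0.84, SD). The groups overlapped, with 9 of 12 spindle cell tumors above the epithelial median and 3 above every epithelial tumor. The difference was 1.08 ± 0.32 (SE), with a 95% interval of 0.43 to 1.72 and an adjusted p of 0.0148 (limma, Benjamini-Hochberg over all genes, 40 tumors). In this comparison 20.1% of all genes were called at an adjusted p under 0.05, against 1 of the 10 members. The difference lay in the tumor channel, which was higher by 1.04, while the reference channel differed by -0.04. A random block for slide ended the call (1.06, adjusted p = 0.0658).

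The other 9 members did not pass the threshold by limma, while SAM called Vegfb, Vegfc and Angpt2 beside Thbs2. In this comparison SAM called 5933 of the 20861 genes, against 4198 by limma. All 10 differences were positive, with a median of 0.48 against -0.07 over all genes. The signs of Figf and Angpt1 turned without 2 spindle cell tumors described below, and that of Vegfb turned in the tumor channel alone. Vegfb, a ligand of Flt1, came closest at 0.38 ± 0.14 (SE, adjusted p = 0.0525), with epithelial values of -1.82 to -0.13 and spindle cell values of -1.45 to 0.34. Its tumor channel was lower by 0.20 in spindle cell tumors (adjusted p = 0.442 for this channel alone) and its reference channel, which held the same RNA on every array, was lower by 0.59. On leaving out single tumors, the adjusted p of Vegfb was between 0.0246 and 0.0496 for 11 of the 41.

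Angpt2, the context-dependent ligand of Tek, had epithelial values of -3.63 to 1.02 and spindle cell values of -1.71 to 2.12, a difference of 0.79 ± 0.33 (SE, adjusted p = 0.0793). The lowest epithelial values, -3.63 and -2.08, were those of 42L4B and 60L, which shared a separate scan session. After another background correction they were -2.14 and -2.03. Vegfc, the lymphatic growth factor, had values of -1.42 to 1.69 and -0.61 to 2.09, a difference of 0.73 ± 0.33 (SE, adjusted p = 0.105). For both genes the groups overlapped over most of their range. Angpt2 passed without the second late HFD-LFD (0.96, adjusted p = 0.0298) or the second late HFD spindle cell tumor (0.92, adjusted p = 0.0457). Thbs1 differed by 0.35 ± 0.37 (SE) in the ratio, with the tumor channel higher by 0.94 and the reference channel higher by 0.59.

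Vegfa was close in both histologies, at 0.51 ± 0.67 (SD, n = 28) in epithelial and 0.65 ± 0.69 (SD, n = 12) in spindle cell tumors. The interval of the difference, -0.32 to 0.60, leaves room for a fold between 0.8 and 1.52. Pgf and Angpt1 differed by 0.11 (95% interval -0.49 to 0.71) and 0.13 (-0.59 to 0.86). For Angpt1 the tumor channel was higher by 0.81 in spindle cell tumors and the reference channel by 0.65. A dimmer probe of Vegfa gave 0.11 ± 0.99 (SD, n = 29) and 0.37 ± 0.79 (SD, n = 12), and the Pearson r between the 2 probes, across tumors, was 0.79 in epithelial and 0.92 in spindle cell tumors.

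**Figure D1:**
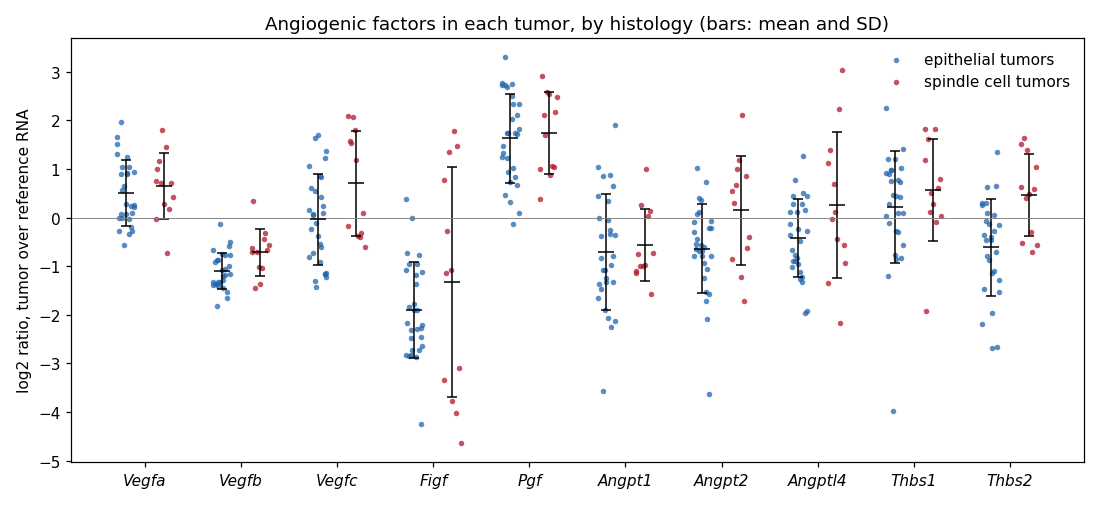
Log2 ratio of tumor over reference RNA (vertical axis) for each of the 10 genes (horizontal axis), with 1 point per tumor, epithelial in blue and spindle cell in red, and bars for mean and SD. Figf spread from -4.64 to 1.79 in spindle cell tumors, and the 2 groups overlapped for every gene.

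**Figure D2:**
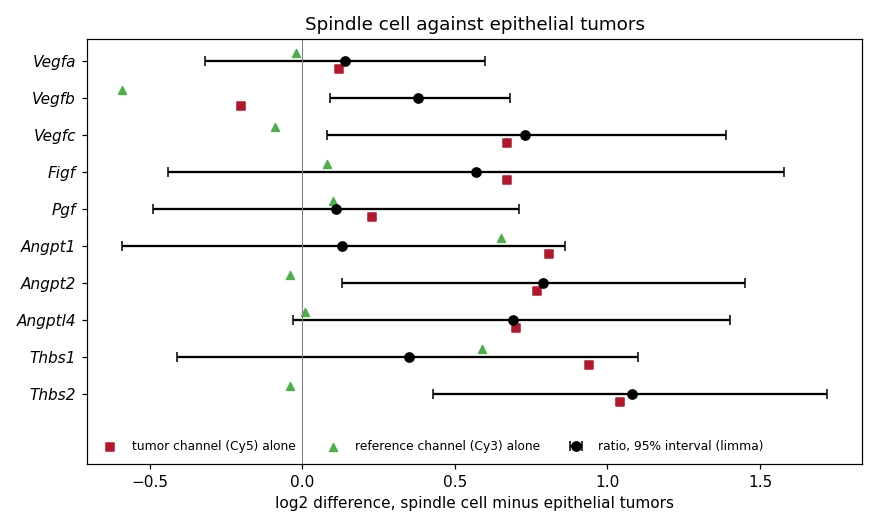
Log2 difference between spindle cell and epithelial tumors (horizontal axis) for each gene (vertical axis). Black points with 95% intervals are the ratio, red squares the tumor channel alone and green triangles the reference channel alone; Thbs2 at 1.08 moved in the tumor channel, and Vegfb at 0.38 had its larger shift, -0.59, in the reference channel.

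Figf, a lymphatic growth factor, had the highest SD of the 10 members among spindle cell tumors. This SD was 2.37, at the 99.3rd percentile of all genes, against 0.99 among epithelial tumors. The array carries 10 spots of this probe, whose median SD within an array was 0.08. In spindle cell tumors the values ran from -4.64 through -1.11 to 1.79, and 4 of 12 tumors lay above the highest epithelial tumor (0.38). The mean difference was 0.57 ± 0.50 (SE, adjusted p = 0.445). Angptl4 also spread more in spindle cell tumors, with an SD of 1.51 against 0.80.

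A pair of spindle cell tumors, M32L (late LFD) and M76R (late LFD-HFD), stood apart by their adipocyte genes. The mean over that list was 1.58 and 3.29 in them and -4.71 to -2.90 in the other 10. Angptl4 stood at 2.24 and 3.03 in these tumors, against -2.17 to 1.40 in the other 10, and Figf at 1.79 and 1.48 against -4.64 to 1.35. The endothelial list mean was also highest in them, at 0.96 and 1.09, against -1.65 to -0.29. Without both tumors, a setting added after the data had been seen, the difference between spindle cell and epithelial tumors was 0.21 for Angptl4, in place of 0.69, and -0.02 for Figf, in place of 0.57. The difference of Thbs2 was then 1.14 (adjusted p = 0.0155) and that of Vegfc 0.94 (adjusted p = 0.0436).

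Other genes of the pathway are read against the 20.1% of all genes called in this comparison and the median of -0.07 over them. Of 9 receptor genes of blood and lymph vessels, 4 were higher in spindle cell tumors and none lower, with a median difference of 0.56. Tie1, an orphan receptor of endothelial cells, was higher by 1.13 ± 0.15 (SE, adjusted p = 1.19e-06), Flt4, the receptor of Vegfc and Figf, by 1.08 ± 0.16 (SE, adjusted p = 8.02e-06), and Nrp2, a co-receptor of Vegfc, by 0.94 ± 0.35 (SE, adjusted p = 0.0492). Of 15 endothelial markers 7 were higher and none lower, with a median of 0.74. Sox18 was higher by 1.13 (adjusted p = 0.000145), Cldn5, a tight junction protein, by 1.0 (adjusted p = 0.0233), and Sox17 by 0.94 (adjusted p = 0.0186). The mean of the endothelial list lay between -2.13 and -0.20 in epithelial tumors and between -1.65 and 1.09 in spindle cell ones. Without M32L and M76R, 3 of the 9 receptor genes and 3 of the 15 endothelial markers were called, all higher, and the medians were 0.23 and 0.36, with 22.6% of all genes called. Tie1 (0.99), Flt4 (1.1) and Sox18 (0.84) passed in that setting, with adjusted p of 1.32e-05, 1.82e-05 and 0.00111, and Nrp2, Cldn5 and Sox17 did not, with adjusted p of 0.0922, 0.0953 and 0.12. The part of vessel content in the values of the 10 members was not tested.

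Among 27 other angiogenic factors and inhibitors, 5 were higher and 2 lower, with a median of 0.18, a share near that over all genes. Angptl2 was higher by 1.12 (adjusted p = 0.0084), Angpt4, a further Tek ligand, by 1.0 (adjusted p = 0.0327), and Thbs3, a thrombospondin, by 1.0 (adjusted p = 0.0282). Fgf1, a fibroblast growth factor, was lower at -1.28 (adjusted p = 0.0117), as was Timp3, a metalloproteinase inhibitor, at -0.98 (adjusted p = 0.0295). Without M32L and M76R, Angptl2, Fgf1 and Timp3 passed, at 1.37, -1.61 and -1.23, and Angpt4 and Thbs3 did not, at 0.71 and 0.70 (adjusted p = 0.135 and 0.123). Pdgfrb, a pericyte receptor, was the single call among 8 mural genes, higher by 0.92 (limma, adjusted p = 0.0044). Of the 8 differences 4 were positive, with a median of 0.02. Without M32L and M76R 3 were positive, with a median of -0.09. Of 20 hypoxia genes only Kdm3a, a histone demethylase, was called, lower at -0.56 (adjusted p = 0.0155). Of 11 PPAR targets, 2 were higher and 1 lower. Plin2, a lipid droplet protein, was higher by 0.96 (adjusted p = 0.000349), and Hadha, of fatty acid oxidation, by 0.55 (adjusted p = 0.00166). None of 9 adipocyte genes tested was called, but without M32L and M76R 6 of the 9 were lower in spindle cell tumors.

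Diet was compared within the 29 epithelial tumors, which asked whether the regimen left a mark on these factors. No member passed the test over the 4 regimens, in which 0.47% of all genes were called at an adjusted p under 0.10, or in any regimen against LFD. The share of all genes called was 0% for HFD, 1.39% for HFD-LFD and 0% for LFD-HFD. At an unadjusted p under 0.05, limma had 1966 genes for HFD and 1366 for LFD-HFD, and the SAM statistic called 0 and 5 genes. For HFD-LFD, SAM called 534 genes against 290 by limma, and the limma count ran from 63 without the first late HFD-LFD tumor to 545 without the first late LFD tumor and was 0 with a random slide block. The number of members at that unadjusted level was 0 for HFD, 1 for HFD-LFD and 3 for LFD-HFD. The share of all genes at that level was 9.42%, 13.6% and 6.55%. All epithelial LFD tumors lay on slides that held no other regimen, so LFD and slide cannot be told apart, and the 3 comparisons share the LFD tumors.

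Pgf had the largest difference among the members. Its log2 ratio ran from -0.14 through 1.36 to 2.03 in the 8 LFD tumors, from 0.32 through 1.52 to 2.76 in the 8 HFD tumors, from 0.09 through 1.01 to 3.30 in the 7 HFD-LFD tumors and from 2.10 through 2.60 to 2.73 in the 6 LFD-HFD tumors. All 6 LFD-HFD tumors lay above all LFD tumors, and both early (2.10 to 2.51) and late (2.69 to 2.73) ones did so. How many of all genes separate these groups as fully was not counted. The difference was 1.25 ± 0.43 (SE), with an unadjusted p of 0.00715 and an adjusted p of 0.603 (limma), and it therefore did not pass the test over all genes. In the 12 spindle cell tumors the same difference was -0.49 ± 0.57 (SE, adjusted p = 0.998), with 3 tumors of each regimen.

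Angptl4 had its lowest mean in LFD tumors, with values of -1.93 through -0.99 to 0.12 (mean -1.0 ± 0.57, SD, n = 8). The means of the other regimens were -0.36 ± 0.99 (SD, n = 7) for HFD, -0.17 ± 0.70 (SD, n = 7) for HFD-LFD and -0.04 ± 0.68 (SD, n = 6) for LFD-HFD. The differences from LFD were 0.64 (95% interval -0.12 to 1.41), 0.83 (0.07 to 1.60) and 0.96 (0.16 to 1.76), with adjusted p of 0.598, 0.32 and 0.689 (limma). In HFD-LFD tumors 4 of 7, and in LFD-HFD tumors 3 of 6, lay above every LFD tumor. Of the 7 HFD tumors 1 lay above and 1, at -1.96, below every LFD tumor. None of the 11 PPAR targets was called in these comparisons.

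Vegfa ran from -0.57 through 0.04 to 1.31 in LFD tumors and from 0.56 through 0.99 to 1.51 in LFD-HFD tumors, a difference of 0.80 ± 0.34 (SE, adjusted p = 0.70). All 6 LFD-HFD tumors lay above the LFD median and 1 lay above every LFD tumor. Against LFD, HFD differed by 0.10 (95% interval -0.56 to 0.76) and HFD-LFD by 0.30 (-0.36 to 0.96). Thbs2 was 0.08 ± 0.89 (SD, n = 7) in HFD tumors and -0.59 ± 0.81 (SD, n = 8) in LFD tumors, and 4 of the 7 HFD tumors lay above every LFD tumor (difference 0.67 ± 0.47, SE, adjusted p = 0.671). The remaining members had differences between -0.97 and 0.90 with intervals that held 0. Of the other lists, Lipe, a hormone-sensitive lipase of adipocytes, was called in HFD-LFD tumors, higher by 1.01 ± 0.29 (SE, adjusted p = 0.0997).

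**Figure D3:**
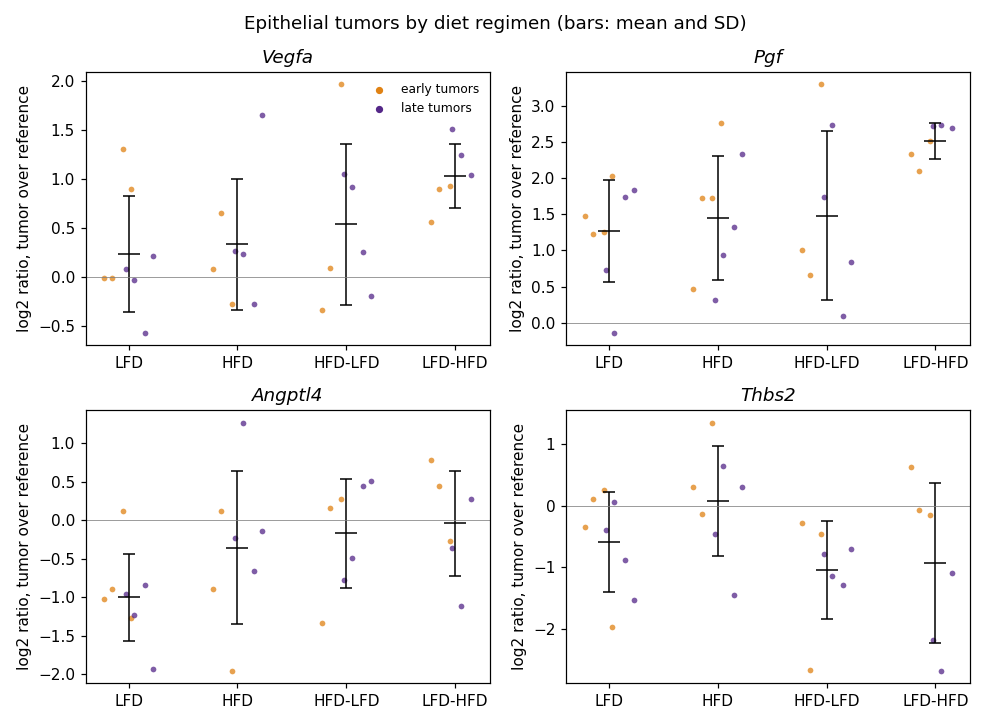
Log2 ratio of tumor over reference RNA (vertical axes) by regimen (horizontal axes) for Vegfa, Pgf, Angptl4 and Thbs2 in epithelial tumors, with early tumors in orange, late tumors in purple and bars for mean and SD. The 6 LFD-HFD tumors sit between 2.10 and 2.73 for Pgf, above all 8 LFD tumors. This difference did not pass over all genes (limma, adjusted p = 0.603), and such separation was counted for the members only.

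Across both histologies, tumors were also set apart by the diet of puberty (21 HFD, 20 LFD) and of adult life (20 HFD, 21 LFD). No member was called for pubertal HFD, for which 0.00959% of all genes were called, or for adult HFD, for which 0% were called. For adult HFD limma had 952 genes, or 4.56% of all genes, at an unadjusted p under 0.05. The SAM statistic called 21 genes for pubertal and 0 for adult HFD, with no member among them. The differences of the members for pubertal HFD lay between -0.53 (Angpt1) and 0.12 (Vegfb), and those for adult HFD between -0.53 (Figf) and 0.50 (Pgf, 95% interval -0.03 to 1.03). The effect of pubertal HFD was not shown to depend on histology for any member, with 0.427% of genes called and Vegfc at an interaction of 1.24 ± 0.64 (SE, adjusted p = 0.43). In the 12 spindle cell tumors alone 0% of genes were called over the regimens. There, 775 genes (3.72%) had an unadjusted p under 0.05 (limma), with no member at that level. Pgf was at 2.17, 2.55 and 2.92 in the HFD and at 0.88, 2.10 and 2.48 in the LFD spindle cell tumors.

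Early and late tumors were compared to find whether the factors differed with latency. No member was called in epithelial tumors, where 0.144% of genes were called at an adjusted p under 0.10 (limma). SAM called 421 genes there against 30 by limma, with no member among them, and the limma count ran from 0 without the third early LFD tumor to 289 without the second early HFD-LFD tumor. In spindle cell tumors 0% were called, with 422 genes (2.02%) at an unadjusted p under 0.05 (limma) and 1 gene called by SAM. The interaction of onset with histology was called for 0.00479% of genes and for no member.

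Angpt1, the vessel-stabilizing ligand, had the largest difference with onset. It ran from -2.25 through 0.17 to 1.90 in 14 early tumors and from -3.57 through -1.25 to -0.06 in 15 late tumors. There were 8 early tumors above every late tumor, a count made for the members only. The difference was 1.14 ± 0.38 (SE), with an unadjusted p of 0.005 and an adjusted p of 0.203 (limma). The 4 early LFD tumors (0.00 to 0.85) were all above the 4 late ones (-1.25 to -0.33), but each set lay on a slide of its own, so that onset and slide cannot be told apart among them. Within the 3 slides that held both, early minus late was 2.89, -0.67 and 1.15, with 4 tumors on each slide. The last of these slides holds the 3 HFD tumors whose matrix columns were exchanged. The lowest value, -3.57 in a late HFD-LFD tumor, came from a spot that was not well above background and became -1.11 after another background correction, under which the difference was 0.90 (adjusted p = 0.209). With the onset that the matrix columns give for the 3 HFD tumors the difference was 0.81 (limma, adjusted p = 0.458). Tumor 65R, at 1.05, was then late, and of the early tumors only 80L, at 1.90, lay above every late tumor.

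Thbs2 and Vegfc were higher in early epithelial tumors by 0.64 and 0.57, and Vegfb, Figf and Angpt2 were lower at -0.26, -0.50 and -0.51, with adjusted p between 0.425 and 0.549. The lowest epithelial values of Figf (-4.25) and Angpt2 (-3.63) were both in 42L4B, an early tumor of the separate scan session. Vegfa (0.02, 95% interval -0.49 to 0.54) and Angptl4 (-0.03, -0.64 to 0.58) had the smallest differences. In spindle cell tumors Thbs2 was at 0.40, 1.39 and 1.52 in the 3 early tumors and from -0.70 to 1.63 in the 9 late ones, a difference of 0.85 (adjusted p = 1, limma). No receptor, endothelial, hypoxia or fibroblast gene was called between early and late tumors of either histology.

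**Figure D4:**
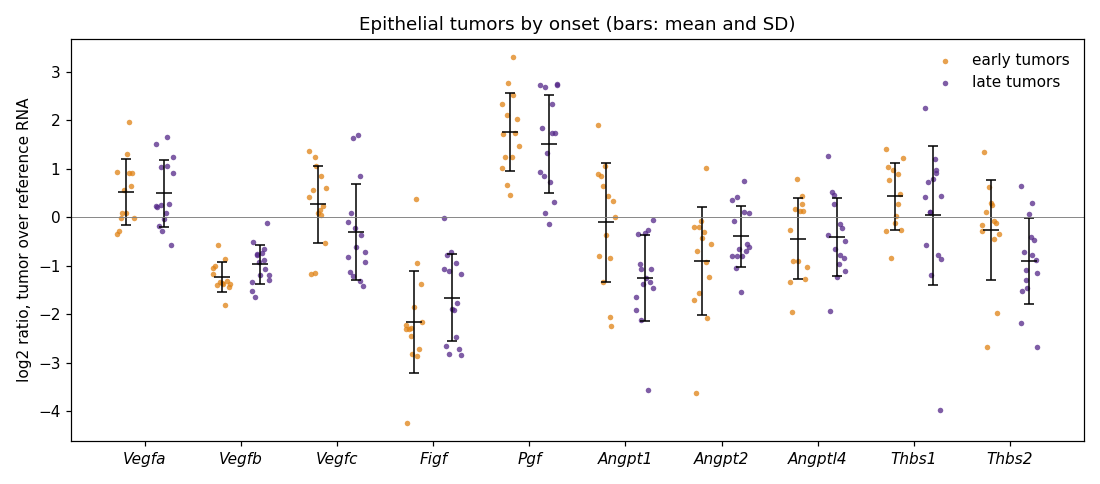
Log2 ratio of tumor over reference RNA (vertical axis) for each of the 10 genes (horizontal axis) in early (orange) and late (purple) epithelial tumors, with bars for mean and SD. For Angpt1, 8 of 14 early tumors lie above all late tumors by the labels used. With the onset that the authors' matrix columns give, only tumor 80L does.

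The members were then related to the mean of 4 gene lists over the epithelial tumors, 40 relations in all, with permutation p-values from 100000 resamples and Benjamini-Hochberg adjustment over the 40. A member and a list were read from the same array, against the same reference. By Pearson r, 8 relations passed an adjusted p of 0.05. Vegfa followed the hypoxia list, which holds 20 genes other than the members, at r = 0.68 (permutation p = 7e-05, adjusted 0.0028) and Spearman rho = 0.61 (adjusted 0.0222). The r was 0.64 without the 2 tumors farthest from the median of the list and 0.70 with slide means removed. Pgf was not called with the hypoxia list, at r = 0.39 and rho = 0.43 (permutation test, adjusted p = 0.0945 and 0.0732).

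Pgf ran against the adipocyte list at r = -0.54 and rho = -0.57 (permutation test, adjusted p = 0.026 and 0.0222), with r = -0.43 without the 2 farthest tumors and -0.64 within slides. Figf rose with the endothelial list at r = 0.54 and rho = 0.55 (permutation test, adjusted p = 0.026 and 0.0222), and with the fibroblast list at r = 0.53 and rho = 0.56 (adjusted p = 0.0266 and 0.0222). Without the 2 farthest tumors these were r = 0.51 and 0.41. Within slides they were 0.43, which did not pass (permutation test, adjusted p = 0.0745), and 0.51, which did (adjusted p = 0.038). The values with slide means removed were shuffled over all tumors and not within slides, so p-values within slides can be too small. Angpt2 rose with the endothelial list at r = 0.56 and rho = 0.42 (permutation test, adjusted p = 0.026 and 0.0732) and with the hypoxia list at r = 0.50 and rho = 0.43 (adjusted p = 0.0337 and 0.0732). Without the 2 farthest tumors these were 0.56 and 0.46. Within slides both were lower, at 0.30 and 0.40, and did not pass. The tumors 42L4B and 60L, lowest in Angpt2, had endothelial list means of -1.71 and -2.05.

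Angptl4 rose with the fibroblast list at r = 0.50 and rho = 0.43 (permutation test, adjusted p = 0.0366 and 0.0732), with r = 0.38 without the 2 farthest tumors and 0.24 within slides, so that this relation did not hold within slides. Vegfb ran against the fibroblast list at r = -0.51 and rho = -0.37 (permutation test, adjusted p = 0.0337 and 0.139), and r was -0.28 without 2 tumors, on which the relation thus rests. Thbs2 and the fibroblast list gave r = 0.46 and rho = 0.53 (permutation test, adjusted p = 0.0532 and 0.0337). After the other background correction, the relation of Vegfa with the hypoxia list was the single one of the 40 that passed (r = 0.68, adjusted p = 0.0032).

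**Figure D5:**
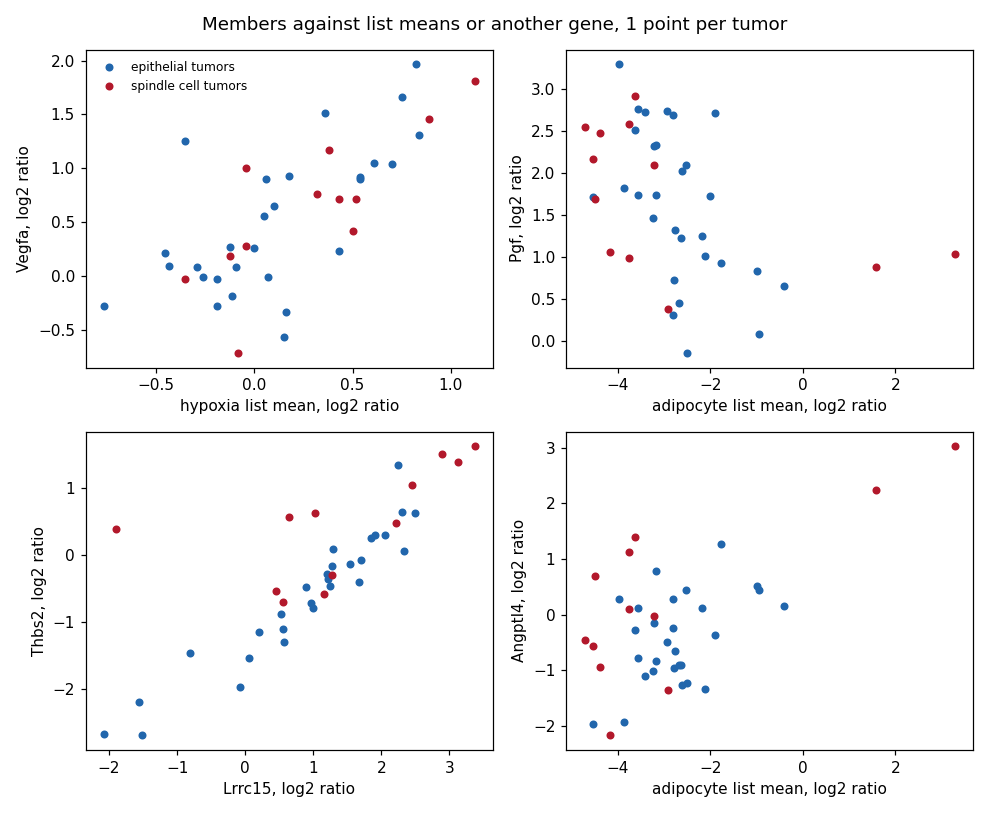
Log2 ratio of a member (vertical axes) against a list mean or another gene (horizontal axes), 1 point per tumor, epithelial in blue and spindle cell in red. Vegfa rises with the hypoxia list (r = 0.68 in epithelial tumors), Pgf falls with the adipocyte list (r = -0.54), Thbs2 follows Lrrc15 (r = 0.95), and the 2 spindle cell tumors with the highest adipocyte means have the highest Angptl4 values, 2.24 and 3.03.

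The promoters of Vegfa and Pgf, the member pair with the highest r over epithelial tumors (0.67, against 0.40 over spindle cell tumors), and of Thbs2, the called member, are given as the 250 bases before each start in RefSeq (GRCm38.p6), read 5′ to 3′. Capitals mark the core of the hypoxia response element, ACGTG or GCGTG, on either strand. Of 32851 promoters searched over the same length, 38.6% held it.
Vegfa, first start, chr17:46032378-46032627 (minus strand): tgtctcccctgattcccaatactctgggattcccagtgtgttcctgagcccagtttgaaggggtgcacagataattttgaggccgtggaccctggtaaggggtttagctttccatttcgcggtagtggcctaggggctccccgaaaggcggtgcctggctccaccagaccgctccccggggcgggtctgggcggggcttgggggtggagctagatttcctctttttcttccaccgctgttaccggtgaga
Vegfa, internal start, chr17:46025164-46025413 (minus strand): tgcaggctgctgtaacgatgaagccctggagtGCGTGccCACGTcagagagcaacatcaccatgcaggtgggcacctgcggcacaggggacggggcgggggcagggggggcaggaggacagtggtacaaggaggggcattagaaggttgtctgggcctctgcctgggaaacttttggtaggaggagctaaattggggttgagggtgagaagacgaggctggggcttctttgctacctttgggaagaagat
Pgf, first start, chr12:85177314-85177563 (minus strand): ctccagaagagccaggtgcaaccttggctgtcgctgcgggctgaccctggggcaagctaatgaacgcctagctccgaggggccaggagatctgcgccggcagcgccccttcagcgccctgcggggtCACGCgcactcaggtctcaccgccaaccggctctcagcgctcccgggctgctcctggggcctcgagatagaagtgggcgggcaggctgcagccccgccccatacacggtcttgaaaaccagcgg
Thbs2, chr17:14694263-14694512 (minus strand): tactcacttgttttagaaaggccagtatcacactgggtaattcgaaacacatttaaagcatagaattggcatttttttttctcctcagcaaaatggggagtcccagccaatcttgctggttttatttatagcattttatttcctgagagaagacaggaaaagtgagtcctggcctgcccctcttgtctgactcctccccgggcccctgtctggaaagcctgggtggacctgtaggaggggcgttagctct
The motif was found 2 times before the internal start of Vegfa and 1 time before the first start of Pgf. The internal window of Vegfa lies downstream of the first start, so both matches lie inside the gene, in sequence transcribed from that start. Whether any match acts as a hypoxia response element was not tested, and bases farther upstream were not searched. No match lay in these windows of the first start of Vegfa, of a second start of Pgf, which is not shown, and of Thbs2. Promoters of 6 members were matched, among them Vegfb with 2 matches and Vegfc and Figf with none. Angpt1, Angpt2, Angptl4 and Thbs1 are named only.

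For each member the genes with the most similar pattern over the epithelial tumors were sought among 18659 genes well above background, as a description. Thbs2 had the closest neighbour, Lrrc15, a membrane protein of activated fibroblasts, at r = 0.95 over 28 tumors and 0.96 with slide means removed. In the spindle cell tumors it was at 0.62. Thbs1 was nearest to Irf2bp2 (0.83, n = 26) and Ctnnd1, a catenin (0.82, n = 27).

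Figf was nearest to Clec10a (0.82) and Cd209f (0.80), lectins of macrophages and dendritic cells, which in spindle cell tumors were at 0.66 and 0.80. Angptl4 was nearest to Gm5483 (0.83) and Sema6b, a semaphorin (0.77), and Angpt2 to Rftn2 (0.79) and Ctla2b (0.76). Vegfa was nearest to Gpihbp1, the endothelial anchor of lipoprotein lipase (0.77), and Prr9 (0.77), and Pgf to Vegfa itself (0.67) and Ikbip (0.64). Vegfc was nearest to St3gal2, a sialyltransferase (0.77), and Sh2d5 (0.75), which were at 0.78 and 0.77 in spindle cell tumors. Angpt1 was nearest to Col25a1, a transmembrane collagen (0.76), and an unnamed RIKEN transcript (0.75), and Vegfb to Fbxw4 (0.75) and an unnamed probe (0.73), and for Vegfb these were at -0.06 and -0.42 in spindle cell tumors.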

How the data were processed

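Gene expression was measured in 41 tumors on 2-color Agilent arrays. The authors deposited for each array the scanner output, which holds the red and green intensity of every spot as mean signals, background and processed signals, that is, background-subtracted and dye-normalized (Agilent Feature Extraction 10.5.1.1 or 11.0.1.1 in the file headers, 8.5.1.1 in the submitters' processing notes). The authors also deposited a matrix of log2 ratios, with a median of -0.039 to 0.05 per array and a median slope of 0.839 against the scanner ratios, which the study's methods describe as Lowess-normalized, with nearest-neighbour imputation of missing values. It served as an alternative. The log10 ratio that the authors deposited with each spot was used only to check the direction of the processed signals. Probe positions and gene names came from the array design.

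The log2 ratio of processed signals was used without further normalization. Outlier spots were set missing, spots of a probe were averaged, and 27241 of 39429 probes passed a filter that asked for a signal above 10 in each channel on 80% of arrays or more. The gene took its probe of highest mean signal. Differences were fitted with lmFit and eBayes of limma 3.58.1 in R 4.3.3, with Benjamini-Hochberg adjustment over 20861 genes and thresholds of 0.05 for histology and 0.10 for diet and onset, after the study's methods, whose SAM statistic was an alternative. A missing value dropped the tumor from that gene's fit. The fit was tested on simulated data. Precision is limited by the number of arrays, and p-values measure the spread between these tumors, for which separate mice are not stated.

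All members were named, and of each other list at most 3 called genes per direction, by size of the difference, and the 2 genes of highest Pearson r with each member. The members and lists were chosen with earlier results of these data known. Tumors of a group that lay above all of another group were counted for the members only, without a share over all genes. Alternatives changed background correction, centring, outlier spots, filter, probe, source, slide, session, test, threshold and tumors. Single genes and a sequence that the rule would name are not reported here.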

Additional observations from a re-analysis of the deposited data

Results flagged for a closer look

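In 4 of the 40 groups of a member in a regimen of epithelial tumors, 1 tumor stood apart from the others of its group by more than a gap test allows, and chance flags about 1 group in 20. Figf was 0.38 in the early LFD tumor 17R, with the nearest of the 8 at -1.37, and -1.08 in 1 late LFD-HFD tumor, with the nearest of the 6 at -2.22. Thbs1 was -3.97 in the late LFD tumor 13L, with the nearest of the 8 at -0.57. Thbs2 was -2.67 in 1 early HFD-LFD tumor, with the nearest of the 7 at -1.29.

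For 4 genes of the other lists, the difference between pubertal HFD and LFD was itself different between spindle cell and epithelial tumors (limma interaction, adjusted p under 0.10). Serpinf1, an angiogenesis inhibitor, was higher by 0.49 with pubertal HFD in epithelial tumors and lower at -1.96 in spindle cell tumors, an interaction of -2.45 ± 0.46 (SE, adjusted p = 0.0202). Fap, a fibroblast protease, had an interaction of -1.71 (adjusted p = 0.044), Cspg4, a pericyte marker, one of -1.58 (adjusted p = 0.0709), and Lpl, lipoprotein lipase, one of -3.70 (adjusted p = 0.0992). Lpl differed by 0.58 in epithelial and by -3.12 in spindle cell tumors. For all 4 genes, the adipocyte-rich tumors M32L and M76R are both in the pubertal LFD group. They also had the highest fibroblast (0.15 and 0.78) and mural (0.59 and 0.17) list means of the spindle cell tumors. The interactions were not fitted without them.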

How the results depend on the processing

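No paired analysis was possible because no pair of groups has more than 1 label number in common. The count of members called in spindle cell tumors, 1 as reported, was 2 after normexp and loess, with no background subtraction and loess, with outlier spots kept, without the filter, in the authors' matrix, with 1 tumor per label number and without M32L and M76R. It was 4 by SAM, 3 at a threshold of 0.10, 0 under a random slide block, and 1 to 3 when each tumor was left out. Vegfb was the added member in 6 of these, with adjusted p between 0.0128 and 0.0467, and Vegfc without M32L and M76R. The count over all 20861 genes moved too, from 4198 as reported to 5933 by SAM and 4713 without M32L and M76R. For the other settings it is not given here. Thbs2 kept its direction in all settings run and fell short only with the slide block (adjusted p = 0.0658). Leaving out 1 tumor gave Thbs2 an adjusted p of 0.00607 to 0.0355. In the comparisons of diet, onset and their interactions the count stayed at 0 in every setting run, left-out tumors included. Slide as a fixed block could not be estimated for histology or for the epithelial regimens, nor scan session for histology. Of 40 relations with list means, 8 as reported, 1 passed after normexp and loess and 5 with slide means removed. Among the 5, Vegfa with hypoxia, Pgf with adipocyte and Figf with fibroblast genes belonged to the 8. Vegfa with endothelial and Thbs1 with fibroblast genes did not. No called difference changed sign, while 277 of the 6049 values recomputed for single members and relations did. Settings without M32L and M76R, for members and gene lists, with the tumor channel alone and with the other Vegfa probe were chosen after seeing the data. The dim Angpt1 probe limits its low values.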
